A study of Homo sapiens with 9 samples.

Results

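The genes described here are the zinc finger genes of human chromosome 19, taken as the protein-coding genes of GENCODE release 29 on that chromosome whose symbol is ZNF followed by digits only. The files listed 240 of them among 58381 genes with an Ensembl identifier. Of these, 155 reached 1 FPKM (fragments counted per length of transcript and scaled to the library) in at least 3 of the 9 libraries and were tested, among 13777 genes in all. The other 85 were not tested, 20 of them were listed at 0 in every library, and the highest single value among the 85 was 1.48 FPKM. Just inside the limit, the third highest library stood at 1.11 FPKM for ZNF71 and at 1.13 FPKM for ZNF221 and ZNF613. Just outside it, the third highest library stood at 0.99 FPKM for ZNF66, 0.98 FPKM for ZNF329 and 0.95 FPKM for ZNF460.

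The RNA came from HK1, an established line of human nasopharyngeal carcinoma cells, 48 h after transfection with siRNA at 100 nM. There were 3 libraries after E2F1 siRNA, 3 after E2F3 siRNA and 3 after a control siRNA with no target. All 9 come from 1 cell line, and how many siRNA sequences were used per target is not given in the sources used here. E2F1 and E2F3 are transcription factors that bind the retinoblastoma protein and drive genes of S phase entry, and the comparisons ask what changed when either was lowered.

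C2H2 zinc finger proteins bind DNA through repeated fingers, each of which holds a zinc ion and contacts a few bases. Most of those on chromosome 19 also carry a KRAB domain, which recruits the corepressor TRIM28 and through it SETDB1 and HP1 proteins, so that the bound DNA is packed as heterochromatin. The family grew by tandem duplication, its genes sit side by side in clusters, and many of its proteins are known for silencing transposable elements.

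The targeted transcripts were lower in the libraries labelled for them. E2F1 stood at 7.17, 7.95 and 7.33 FPKM after E2F1 siRNA, against 19.85, 19.53 and 20.20 FPKM in control libraries. E2F3 stood at 12.61, 10.52 and 11.02 FPKM after E2F3 siRNA, against 24.74, 27.17 and 24.42 FPKM in control libraries. The 10 epithelial markers were all expressed, with group means between 15.43 FPKM (CDH1 after E2F1 siRNA) and 844.3 FPKM (KRT8 in control libraries). By the limma test described below, 8 of the 10 (KRT5, KRT8, KRT14, KRT17, KRT18, TP63, ITGB4 and ITGA6) were lower after either siRNA. CDH1 was lower after E2F1 siRNA only, and EPCAM was called in neither comparison with control. Over all genes tested, 17.3% were called lower after E2F1 siRNA and 16.4% after E2F3 siRNA. KRT17 averaged 400.2 FPKM after E2F1 siRNA, 368.3 FPKM after E2F3 siRNA and 766.8 FPKM in control libraries. The part of these markers in the results below was not tested. The leukocyte, endothelial and fibroblast markers PTPRC, CD3E, PECAM1, CDH5, COL1A2, DCN and PDGFRB averaged under 1 FPKM in every group. Of those lists only CD68 and COL1A1 were detected above it. CD68 averaged 17.65 FPKM after E2F1 siRNA, 18.21 FPKM after E2F3 siRNA and 18.57 FPKM in control libraries. COL1A1 averaged 17.88 FPKM after E2F1 siRNA, 13.96 FPKM after E2F3 siRNA and 12.81 FPKM in control libraries. COL1A1 was higher after E2F1 siRNA by the test, and its part in the results below was not tested. Between 13140 and 13608 genes reached 1 FPKM per library, and the absolute depth is unknown because the files hold no counts. Whether the libraries of 1 group stem from separate cultures is not stated, so p-values here measure only the spread between libraries, which may be technical. In bulk RNA, fewer cells that express a gene and less RNA per cell cannot be told apart.

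Most chromosome 19 ZNF genes were expressed at low levels. The mean level over the 9 libraries had a median of 4.34 FPKM across the 155 tested genes (interquartile range 2.55 to 7.78 FPKM, extremes 0.957 and 68.2 FPKM), against a median of 13.1 FPKM over all genes tested. ZNF146, which codes for a short protein of 10 fingers without a KRAB A box, was the most abundant. ZNF226 (mean 27.6 FPKM), ZNF544 (25.1), ZNF714 (22.6), ZNF561 (20.2), ZNF317 (20.0), ZNF428 (17.1) and ZNF431 (16.5) followed. The within-group coefficient of variation had a median of 11.01% over the tested genes. Of the 155, 137 were at 1 FPKM or more in all 9 libraries and 18 in fewer. Among the 18, 2 reached 1 FPKM in no control library and so passed the limit through knockdown libraries alone. Others, such as ZNF836, passed only with knockdown libraries added to control libraries. All stayed in the tested set and in the counts below, and the limit favours a rise over control in such genes. Of the 155, 144 to 149 reached 1 FPKM per control library, 148 to 154 per E2F1 siRNA library and 152 to 153 per E2F3 siRNA library. Changes below are differences of log2(FPKM + 1), a measure that makes the change of a low gene look smaller than it is.

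Among the abundant members, ZNF317 read 22.80, 23.03 and 21.25 FPKM after E2F1 siRNA, 23.31, 22.32 and 23.20 FPKM after E2F3 siRNA, and 15.38, 14.16 and 14.33 FPKM in control libraries. It was higher in all 6 knockdown libraries (log2 0.58 and 0.62; limma adjusted p = 3.32e-05 and 2.66e-05). ZNF226 read 26.50, 22.96 and 23.69 FPKM after E2F1 siRNA, 34.55, 32.09 and 32.80 FPKM after E2F3 siRNA, and 23.78, 25.04 and 27.00 FPKM in control libraries. Only its E2F3 siRNA libraries stood above control (log2 0.38; limma adjusted p = 1.84e-03). ZNF428, with a single finger, was called in neither comparison.

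The summed level of the 155 genes was higher after either siRNA than in control libraries. It was 1023.46, 1009.74 and 995.15 FPKM after E2F1 siRNA (mean 1009 ± 14.2, SD), 1135.08, 1100.25 and 1078.4 FPKM after E2F3 siRNA (1105 ± 28.6), and 806.36, 798.08 and 786.03 FPKM in control libraries (797 ± 10.2; n = 3 each). Every library of either siRNA stood above every control library. The same held for the summed level of tested ZNF genes on other chromosomes. Their sums averaged 2356 FPKM after E2F1 siRNA, 2298 FPKM after E2F3 siRNA and 1973 FPKM in control libraries.

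After E2F1 siRNA, 60 of the 155 tested ZNF genes rose, 7 fell and the test called no change in 88 (limma on log2(FPKM + 1), Benjamini-Hochberg adjusted over all genes, threshold 0.05). Over all 13777 genes, 20.5% were called higher and 17.3% lower. The median log2 change of the ZNF genes was 0.22, against 0.03 over all genes. The 3 libraries after E2F1 siRNA all lay above the 3 control libraries for 70 ZNF genes and all below for 9, where 27.7% and 22.6% of all genes did so. Called rises ran from 0.24 to 1.49 on the log2 scale and called falls from -0.61 to -0.16.

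The largest rise was that of ZNF845, whose product has 26 fingers and a KRAB domain (chr19:53333746-53356906 in GRCh38, plus strand). ZNF845 stood at 5.46, 6.23 and 5.77 FPKM after E2F1 siRNA, 5.67, 5.18 and 5.15 FPKM after E2F3 siRNA, and 1.5, 1.46 and 1.33 FPKM in control libraries. All 6 knockdown libraries were more than 3 times the highest control library. After E2F1 siRNA the log2 change was 1.49 with an SE of 0.08 (limma adjusted p = 1.36e-06). After E2F3 siRNA it was 1.38 with the same SE (limma adjusted p = 2.46e-06). Its close neighbour ZNF761, with 17 fingers and a KRAB domain, read 9.27, 9.49 and 9.72 FPKM after E2F1 siRNA, 8.55, 8.68 and 8.13 FPKM after E2F3 siRNA, and 3.46, 2.24 and 2.99 FPKM in control libraries. The groups did not overlap, and the log2 changes were 1.44 and 1.29 (limma adjusted p = 7.16e-06 and 1.70e-05). ZNF714, the most abundant of the strong risers, has 12 fingers and no KRAB A box in the protein searched. It read 30.71, 29.83 and 27.66 FPKM after E2F1 siRNA, 27.52, 25.92 and 26.17 FPKM after E2F3 siRNA, and 12.46, 10.79 and 11.98 FPKM in control libraries. That is a rise of 1.26 after E2F1 siRNA and 1.11 after E2F3 siRNA on the log2 scale (limma adjusted p = 7.66e-07 and 1.94e-06).

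ZNF766, ZNF525, ZNF836, ZNF765 and ZNF227, all with a KRAB domain, made up the rest of the 8 largest rises after E2F1 siRNA. ZNF766 read 20.21, 21.08 and 14.92 FPKM after E2F1 siRNA and 7.68, 6.80 and 7.61 FPKM in control libraries (log2 1.23). ZNF227, with 18 fingers, read 14.39, 14.81 and 14.60 FPKM after E2F1 siRNA and 6.03, 6.68 and 5.86 FPKM in control libraries (log2 1.12). ZNF525 rose by 1.21, ZNF836 by 1.18 and ZNF765 by 1.15. ZNF836 was the lowest of the 8, at 2.67, 2.48 and 3.97 FPKM after E2F1 siRNA and 0.57, 1 and 0.74 FPKM in control libraries. Its control libraries alone would not have passed the limit for testing, which favours a rise in such a gene. Of these 8 genes, 6 lie in 1 stretch of the chromosome, between ZNF175 and ZNF331.

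ZNF845, ZNF525, ZNF765 and ZNF761 are neighbours within that stretch, and their promoters are much alike. Over the 250 bases before the RefSeq start, their pairwise identity in a global alignment was 78.4 to 86.8%. The 4 sequences are shown because their genes are among the largest risers and share these letters, and the choice was made after the values were seen. Each line gives the first 150 of those 250 bases (RefSeq, GRCh38.p14, 5′ to 3′ on the gene's strand), none of which lies in a GENCODE 29 exon, with the longest run common to the 4, of 22 bases, in capitals.
ZNF845 (chr19:53333499-53333648, plus strand): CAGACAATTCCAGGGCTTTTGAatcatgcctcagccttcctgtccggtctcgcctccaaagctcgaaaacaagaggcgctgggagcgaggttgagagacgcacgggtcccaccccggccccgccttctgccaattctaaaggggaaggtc
ZNF765 (chr19:53394899-53395048, plus strand): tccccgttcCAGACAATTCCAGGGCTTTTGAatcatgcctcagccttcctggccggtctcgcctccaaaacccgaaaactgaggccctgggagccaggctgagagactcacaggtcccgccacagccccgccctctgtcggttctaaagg
ZNF761 (chr19:53431734-53431883, plus strand): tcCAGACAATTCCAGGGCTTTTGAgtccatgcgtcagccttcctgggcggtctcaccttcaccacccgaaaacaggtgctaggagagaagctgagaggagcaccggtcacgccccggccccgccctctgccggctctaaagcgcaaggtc
ZNF525 (chr19:53365455-53365604, plus strand): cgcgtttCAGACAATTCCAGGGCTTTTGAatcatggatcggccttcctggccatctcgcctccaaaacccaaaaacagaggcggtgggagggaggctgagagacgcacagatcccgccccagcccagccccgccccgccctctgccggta

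After E2F1 siRNA only 7 of the 155 genes fell. ZNF266, with 12 fingers and a KRAB domain, read 10.90, 10.52 and 12.23 FPKM after E2F1 siRNA, 16.23, 16.02 and 12.71 FPKM after E2F3 siRNA, and 17.03, 19.42 and 16.47 FPKM in control libraries. All 6 knockdown libraries lay below control. Its fall after E2F1 siRNA, a log2 change of -0.61, had an SE of 0.10 (limma adjusted p = 1.19e-03). With E2F3 siRNA the log2 change of -0.23 was not called (limma adjusted p = 0.111). ZNF331, reported to be silenced by methylation in several carcinomas, read 3.81, 4.43 and 4.48 FPKM after E2F1 siRNA and 6.04, 6.66 and 5.54 FPKM in control libraries (log2 -0.43; limma adjusted p = 3.95e-03). ZNF358 fell by 0.50 and ZNF114 by 0.45. ZNF419 fell by 0.51 and ZNF776 by 0.51, and both calls were lost with no filter on low values or on leaving out a single library. ZNF419 lost its call without control replicate 1 or 3 or E2F1 siRNA replicate 1 or 2 (log2 -0.50 to -0.38). ZNF776 lost it without control replicate 2 or E2F1 siRNA replicate 1 or 3 (log2 -0.52 to -0.33). ZNF146 fell by 0.16, the smallest of the 7 changes.

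After E2F3 siRNA, 71 of the 155 genes rose and 3 fell, and 81 were not called. Over all genes tested, 21.1% were called higher and 16.4% lower. The median log2 change of the ZNF genes was 0.32, against 0.04 over all genes. The 3 libraries after E2F3 siRNA all lay above the control libraries for 91 ZNF genes and all below for 5, where 28.6% and 21.0% of all genes did so. Both comparisons use the same 3 control libraries, so the counts of the E2F1 and E2F3 comparisons are not independent of each other.

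ZNF845 and ZNF761 again had the largest rises, and ZNF765 rose by 1.20 (4.42, 4.39 and 4.76 FPKM after E2F3 siRNA, against 1.58, 1.08 and 1.56 FPKM in control libraries). ZNF426, with 11 fingers and a KRAB domain, stood higher after E2F3 siRNA than in both other groups. It read 7.88, 8.41 and 7.93 FPKM after E2F3 siRNA, 5.44, 4.37 and 5.08 FPKM after E2F1 siRNA, and 2.95, 3.02 and 2.62 FPKM in control libraries. The 3 groups of ZNF426 did not overlap, and its log2 changes against control were 1.23 after E2F3 siRNA and 0.62 after E2F1 siRNA (limma adjusted p = 6.80e-06 and 4.63e-04). ZNF254 read 13.99, 12.35 and 14.58 FPKM after E2F3 siRNA, 9.97, 9.78 and 9.81 FPKM after E2F1 siRNA, and 5.12, 5.72 and 5.09 FPKM in control libraries. That order held in every library of ZNF254, with a log2 change of 1.21 after E2F3 siRNA (limma adjusted p = 2.98e-06). ZNF616, with 21 fingers, read 6.70, 5.76 and 6.12 FPKM after E2F3 siRNA and 1.44, 1.97 and 2.78 FPKM in control libraries (log2 1.25). After E2F1 siRNA the ZNF616 libraries, at 2.41, 4.85 and 5.13 FPKM, overlapped with control, and the call there was lost without control replicate 1 or 2 or E2F1 siRNA replicate 2 or 3 (log2 0.57 to 0.71), with only the libraries compared (0.72), or with no filter on low values. ZNF708 rose by 1.16 and ZNF468 by 1.28. The value of ZNF468 is uncertain, because 99.2% of the 50-base words of its longest transcript also occur in transcripts of other annotated genes, and how shared reads were counted is not given.

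Only ZNF507, ZNF653 and ZNF584 fell after E2F3 siRNA, and the first 2 have no KRAB A box. ZNF507 read 4.82, 5.28 and 4.64 FPKM after E2F3 siRNA, 9.25, 7.83 and 8.42 FPKM after E2F1 siRNA, and 8.83, 7.5 and 7.18 FPKM in control libraries. It was low in the E2F3 siRNA libraries alone (log2 -0.58 against control, SE 0.09; limma adjusted p = 1.05e-03). ZNF653 read 1.25, 1.72 and 1.85 FPKM after E2F3 siRNA, 2.96, 4.04 and 3.33 FPKM after E2F1 siRNA, and 2.43, 2.72 and 3.02 FPKM in control libraries (log2 -0.52 after E2F3 siRNA; limma adjusted p = 0.0119). ZNF584 fell by 0.23, and this call was lost with no filter on low values, with only the libraries compared, or without control replicate 2 or 3, E2F1 siRNA replicate 1 or 2, or E2F3 siRNA replicate 2 or 3 (log2 -0.25 to -0.17).

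**Figure D1:**
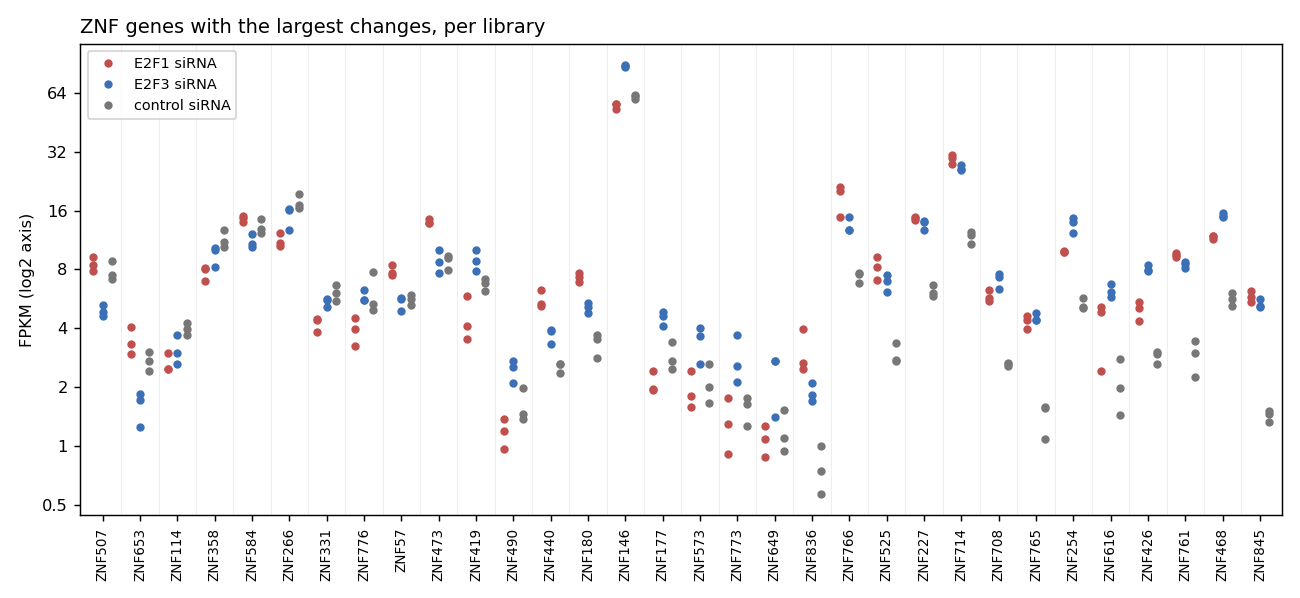
FPKM per library (vertical axis, log2 scale) of the ZNF genes with the largest called changes in any comparison, ordered by the log2 change after E2F3 siRNA. Each point is 1 library, with E2F1 siRNA at the left of each column, E2F3 siRNA in the middle and control siRNA at the right. The control points of ZNF845, at 1.33 to 1.5 FPKM, lie below all knockdown points, and those of ZNF266, at 16.47 to 19.42 FPKM, lie above all knockdown points.

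After E2F1 siRNA, rises were most frequent in 2 of the neighbourhoods of the chromosome that hold at least 10 tested genes. When members whose starts lie within 500 kb of the next are joined, the 240 genes form 20 neighbourhoods, 8 of which hold at least 10 tested genes and 139 of the 155 between them. In the neighbourhood from ZNF101 to ZNF254 (chr19:19668796-24129961 in GRCh38), 14 of 17 tested genes rose after E2F1 siRNA and 14 of 17 after E2F3 siRNA, and 0 fell in either comparison. Its median log2 changes were 0.56 and 0.75. In the neighbourhood from ZNF175 to ZNF331 (chr19:51571298-53580269), 19 of 29 rose and 1 fell after E2F1 siRNA, and 19 rose and 0 fell after E2F3 siRNA, with medians of 0.58 and 0.64. Among the 109 tested genes outside these 2 neighbourhoods, 27 rose and 6 fell after E2F1 siRNA (median 0.14), and 38 rose and 3 fell after E2F3 siRNA (median 0.22). These 2 neighbourhoods were singled out after their values were seen, and their difference from the others was not tested.

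The levels of these neighbourhoods were also summed per library. The 17 genes from ZNF101 to ZNF254 summed to 141.39, 140.49 and 133.51 FPKM after E2F1 siRNA, 161.47, 143.12 and 154.43 FPKM after E2F3 siRNA, and 83.58, 83.70 and 77.90 FPKM in control libraries. The 29 genes from ZNF175 to ZNF331 summed to 182.75, 186.73 and 181.65 FPKM after E2F1 siRNA, 206.27, 196.05 and 176.95 FPKM after E2F3 siRNA, and 112.87, 109.07 and 114.30 FPKM in control libraries. The knockdown libraries of both neighbourhoods lay above all control libraries. The 10 tested genes from ZNF628 to ZNF835 summed to 63.56, 63.94 and 61.93 FPKM after E2F1 siRNA, 57.61, 63.97 and 59.64 FPKM after E2F3 siRNA, and 58.04, 52.32 and 56.29 FPKM in control libraries. There, 1 of 10 rose after E2F1 siRNA and 1 of 10 after E2F3 siRNA, and the E2F3 siRNA libraries overlapped with control. Those shares of 10% lie below the 20.5% and 21.1% of all genes called higher.

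Counts in the other 5 neighbourhoods ranged widely. They stand beside 20.5% of all genes called higher after E2F1 siRNA and 21.1% after E2F3 siRNA, and their difference from all genes was not tested. From ZNF414 to ZNF846, 3 of 12 (25%) rose and 1 fell after E2F1 siRNA, and 8 rose and 0 fell after E2F3 siRNA. The share rising there after E2F3 siRNA, 66.7%, was no smaller than the 65.5% from ZNF175 to ZNF331. From ZNF653 to ZNF791, 4 of 13 rose after E2F1 siRNA, and 6 rose and 1 fell after E2F3 siRNA. From ZNF575 to ZNF180, 5 of 17 (29.4%) rose after E2F1 siRNA and 7 (41.2%) after E2F3 siRNA. From ZNF565 to ZNF573, which holds ZNF146, 1 of 11 (9.09%) rose and 1 fell after E2F1 siRNA, and 2 (18.2%) rose after E2F3 siRNA. Those rising shares lie below the shares of all genes. At the end of the long arm, from ZNF264 to ZNF446, 9 of 30 (30%) rose and 2 fell after E2F1 siRNA. After E2F3 siRNA, 11 (36.7%) rose and 1 fell there.

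**Figure D2:**
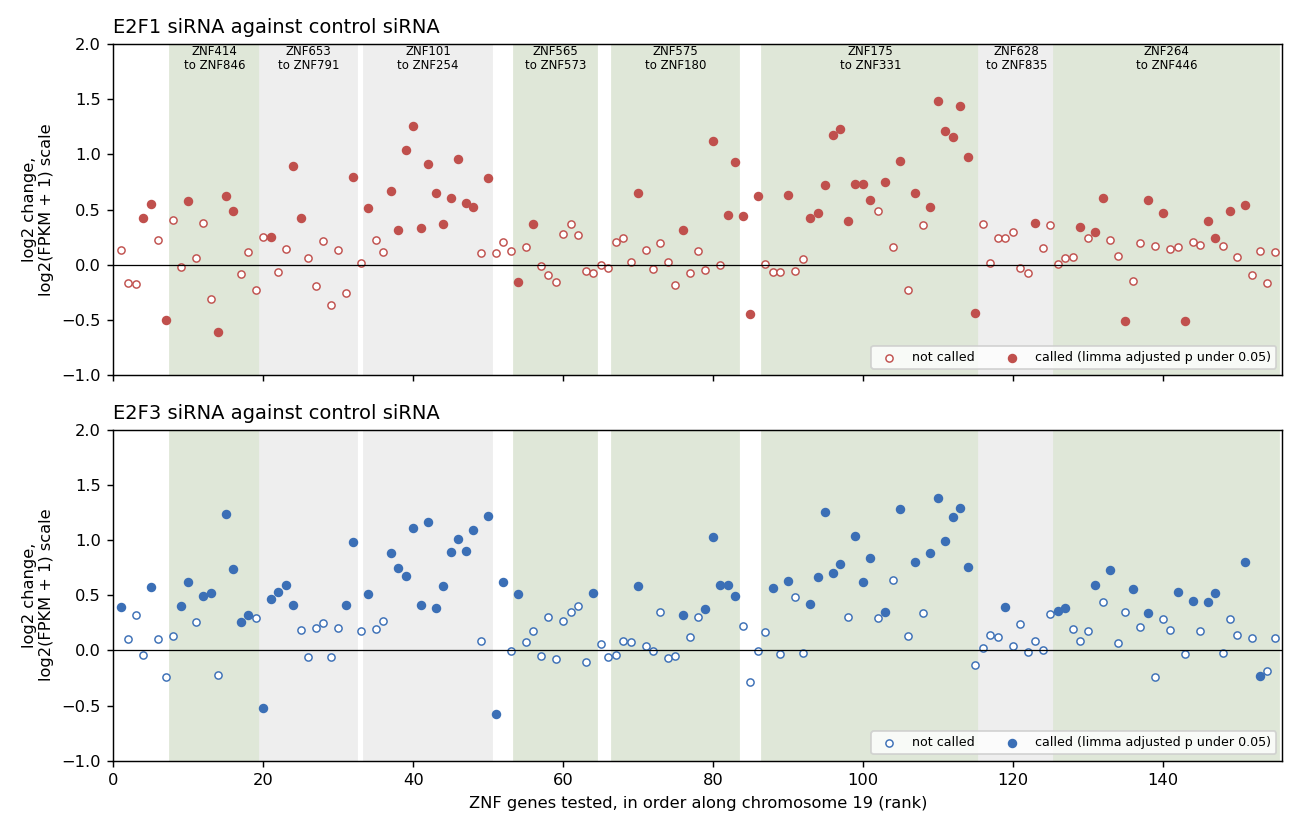
Log2 change of each tested ZNF gene (vertical axis, log2(FPKM + 1) scale) in its order along chromosome 19 (horizontal axis, rank), after E2F1 siRNA (top) and E2F3 siRNA (bottom), each against control. Filled points passed the limma test, and shading marks the 8 neighbourhoods with at least 10 tested genes. The points from ZNF101 to ZNF254 all lie above 0 in both panels, with medians of 0.56 and 0.75.

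**Figure D3:**
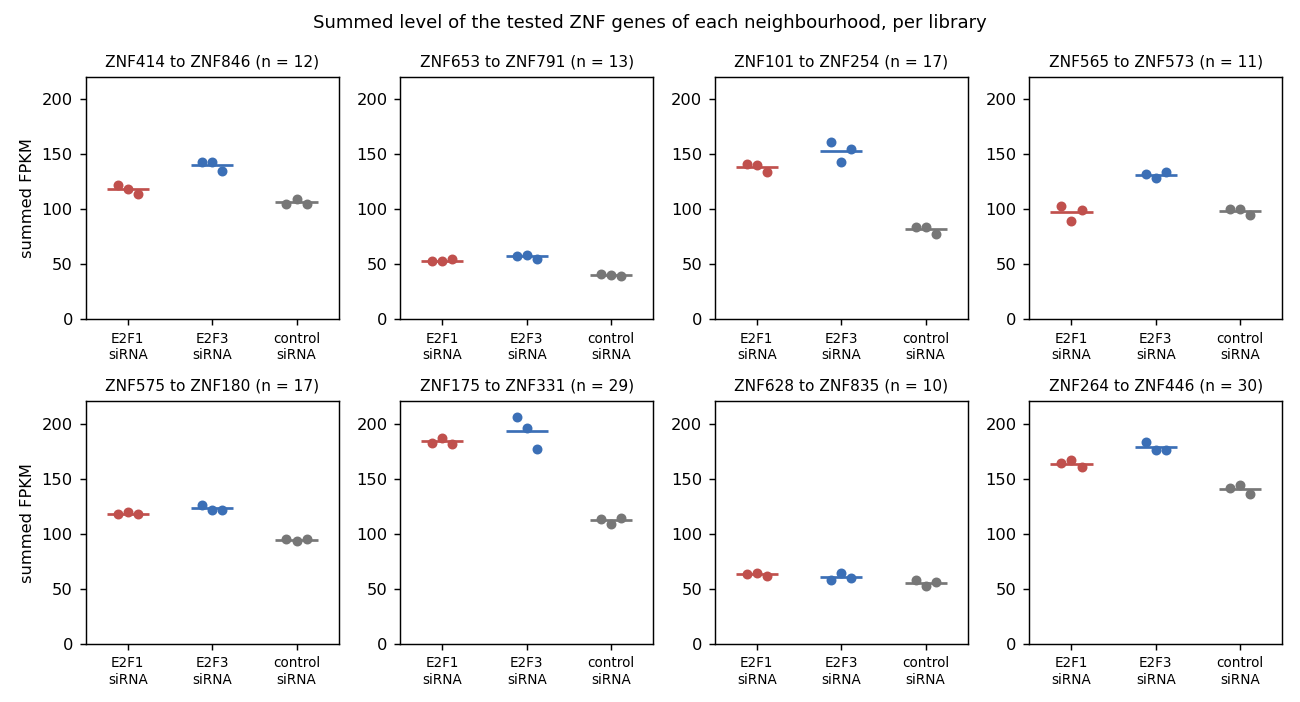
Summed FPKM of the tested ZNF genes of each of the 8 neighbourhoods, with 1 point per library and a line at the group mean. E2F1 siRNA stands at the left, E2F3 siRNA in the middle and control siRNA at the right of each panel. The panel of ZNF175 to ZNF331 runs from 176.95 to 206.27 FPKM in the knockdown libraries, against 109.07 to 114.30 FPKM in control libraries.

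Genes of other kinds are few inside the 2 neighbourhoods. No other protein-coding gene was tested between ZNF101 and ZNF254, and among 11 tested non-coding genes or pseudogenes there 2 rose after E2F1 siRNA and 0 after E2F3 siRNA by limma. Between ZNF175 and ZNF331, 3 other protein-coding genes were tested, of which 0 rose and 1 fell after E2F1 siRNA and 0 were called after E2F3 siRNA. Of 5 tested genes there that are not protein-coding, 2 rose after E2F1 siRNA and 1 after E2F3 siRNA.

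Within the neighbourhood from ZNF101 to ZNF254, 13 tested genes had a promoter much like that of another member, by the limit given below. ZNF714, ZNF91, ZNF254 and ZNF430, 4 of the 13, share another kind of promoter and were picked with the values known. Of the others, ZNF724 rose by 0.96 after E2F1 siRNA, ZNF708 by 0.92, ZNF431 by 0.33 and ZNF85 by 0.32. ZNF726, also among the 13, was called in neither comparison with control (log2 0.11 and 0.09). ZNF91, known for repressing SVA retrotransposons, read 9.34, 9.12 and 9.12 FPKM after E2F1 siRNA, 12.56, 11.30 and 11.70 FPKM after E2F3 siRNA, and 6.08, 6.13 and 5.51 FPKM in control libraries. Its 3 groups did not overlap, with log2 changes of 0.56 and 0.90 (limma adjusted p = 1.48e-04 and 8.60e-06). ZNF430 read 8.33, 7.58 and 7.93 FPKM after E2F1 siRNA, 6.71, 6.04 and 5.19 FPKM after E2F3 siRNA, and 3.13, 3.72 and 3.21 FPKM in control libraries, rises of 1.04 and 0.68. The pairwise identity of these 4 promoters was 78.4 to 86.0%, and that between them and the 4 promoters around ZNF845 was 54.0 to 60.0%, near the median of 58.8% over all 9180 pairs of tested members with a RefSeq promoter. They are shown for comparison with the first set, in the same 150-base window, with their longest common run, of 13 bases, in capitals, and again none lies in a GENCODE 29 exon.
ZNF714 (chr19:21081953-21082102, plus strand): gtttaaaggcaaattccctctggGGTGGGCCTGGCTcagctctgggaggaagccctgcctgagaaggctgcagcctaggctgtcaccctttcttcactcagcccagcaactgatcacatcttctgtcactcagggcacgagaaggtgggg
ZNF91 (chr19:23395572-23395721, minus strand): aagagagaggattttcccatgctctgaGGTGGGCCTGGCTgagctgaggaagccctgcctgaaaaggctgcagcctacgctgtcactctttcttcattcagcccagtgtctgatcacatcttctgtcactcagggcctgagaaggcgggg
ZNF254 (chr19:24086937-24087086, plus strand): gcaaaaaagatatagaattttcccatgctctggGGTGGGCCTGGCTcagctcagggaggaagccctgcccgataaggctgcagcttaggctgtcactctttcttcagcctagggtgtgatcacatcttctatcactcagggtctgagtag
ZNF430 (chr19:21020407-21020556, plus strand): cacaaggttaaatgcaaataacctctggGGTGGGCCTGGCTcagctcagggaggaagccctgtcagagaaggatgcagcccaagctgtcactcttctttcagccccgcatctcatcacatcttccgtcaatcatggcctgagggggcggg

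Most pairs of look-alike promoters lay in the neighbourhoods described first. RefSeq promoters were found for 209 of the 240 genes, 136 of them tested. An identity of at least 75% was reached by 94 of the 9180 pairs, 48 of them between ZNF101 and ZNF254 and 43 between ZNF175 and ZNF331, and by 0 of the 8131 pairs in different neighbourhoods. Of the 29 genes with at least 1 such partner, 22 rose and 0 fell after E2F1 siRNA (median log2 change 0.61), and 23 rose and 0 fell after E2F3 siRNA (median 0.75). Of the 107 with none, 33 rose and 6 fell after E2F1 siRNA (median 0.16), and 43 rose and 3 fell after E2F3 siRNA (median 0.29). Inside the 2 neighbourhoods, 21 of 23 genes with a partner rose after E2F1 siRNA and 21 of 23 after E2F3 siRNA, against 8 of 16 and 8 of 16 without one. Of the 29 genes, 23 thus lie inside those neighbourhoods. Outside them, ZNF561 and ZNF562 had a partner and rose after E2F3 siRNA only, and ZNF700 had one and rose after E2F1 siRNA only. ZNF20, ZNF44 and ZNF799, also outside and with a partner, were called in neither comparison with control. The limit of 75% was chosen after the values were seen, and whether promoter letters bear on these counts was not tested.

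The E2F motif, searched as TTTCCCGC, TTTGGCGC, TTTCGCGC and TTTGCCGC on both strands from 250 bases before to 50 after the start, was rare in these promoters. It was found in 8 of 136 promoters of tested members (5.88%), in 518 of 9412 promoters of tested protein-coding genes (5.50%) and in 908 of all 27305 promoters (3.33%). Of the 8 genes, 3 rose and 0 fell after E2F1 siRNA, and 2 rose and 1 fell after E2F3 siRNA. Of the 128 without it, 52 rose and 6 fell after E2F1 siRNA, and 64 rose and 2 fell after E2F3 siRNA. Among all genes tested, 20.5% were called higher after E2F1 siRNA and 21.1% after E2F3 siRNA. The matches are shown because both knocked-down factors bind such letters, each within 30 bases of RefSeq sequence (GRCh38.p14) and with the motif in capitals as read on the gene's strand. ZNF101 and ZNF444 hold 2 each, and the match of ZNF708 lies after the start.
ZNF101 (chr19:19668746-19668775, plus strand): agaggcgctgtGCGGCAAActgtccaatca
ZNF101 (chr19:19668811-19668840, plus strand): aagcggtctcaTTTCCCGCcggccccccat
ZNF260 (chr19:36528409-36528438, minus strand): aggaaaagttcGCGCGAAAagctgactcaa
ZNF444 (chr19:56141134-56141163, plus strand): tggcagccgccTTTGCCGCgatgcttcctg
ZNF444 (chr19:56141249-56141278, plus strand): ggacgggggagTTTGGCGCaaagcctgctg
ZNF547 (chr19:57363475-57363504, plus strand): tagttccggccTTTGGCGCtctatgacgtc
ZNF615 (chr19:52008312-52008341, minus strand): cccggtcaccaGCGCCAAAacgcgcccttt
ZNF653 (chr19:11505884-11505913, minus strand): cttggtctcctTTTGGCGCcctggggcagc
ZNF708 (chr19:21329361-21329390, minus strand): cggacagggcggcttccgggTTTGGCGCgg
ZNF816 (chr19:52963013-52963042, minus strand): ggccccgccccTTTCCCGCccccgcggact

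Of the 8 genes, ZNF101 and ZNF708 rose after both siRNAs, ZNF260 rose after E2F1 siRNA, and ZNF653 fell after E2F3 siRNA. A match says only that the letters are present, and absence from this window says nothing of binding by either factor.

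Counts were also taken by kind of protein, with no test between the kinds. A KRAB A box was found in 204 of the 240 proteins and in 130 of the 155 of tested genes. Of these 130, 53 rose and 5 fell after E2F1 siRNA, and 66 rose and 1 fell after E2F3 siRNA (medians 0.21 and 0.35). Of the 25 without it, 7 rose and 2 fell after E2F1 siRNA, and 5 rose and 2 fell after E2F3 siRNA (medians 0.24 and 0.11). The number of C2H2 fingers ran from 1 to 31 with a median of 12. Among 47 genes with 15 or more fingers, 24 rose after E2F1 siRNA, 24 after E2F3 siRNA, and 0 fell in either comparison. Among 45 with 1 to 9 fingers, 9 rose and 3 fell after E2F1 siRNA, and 15 rose and 3 fell after E2F3 siRNA. The rising shares were 28% and 20% without a KRAB A box, and 20% and 33.3% with 1 to 9 fingers. Over all genes tested, 20.5% were called higher after E2F1 siRNA and 21.1% after E2F3 siRNA. The 20% of members without a KRAB A box after E2F3 siRNA, and that with 1 to 9 fingers after E2F1 siRNA, were thus near the share of all genes. By level, 36 of 65 members averaging 5 FPKM or more rose after E2F1 siRNA and 37 after E2F3 siRNA. Of 90 averaging under 5 FPKM, 24 and 34 rose. Across the 155 genes, Spearman's rho between finger number and log2 change was 0.21 after E2F1 siRNA and 0.28 after E2F3 siRNA. For mean level it was 0.255 and 0.173. For GC content of the transcript it was -0.22 and -0.41, and these genes share libraries, neighbourhoods and base composition, so the coefficients are given as descriptions only. The median GC content was 42.5% for the tested members and 48.2% for all genes tested, and it was 37.4% from ZNF101 to ZNF254, 41.2% from ZNF175 to ZNF331 and 64.9% from ZNF628 to ZNF835. With a correction for GC content and length, 64 genes rose and 7 fell after E2F1 siRNA, and 68 rose and 3 fell after E2F3 siRNA. Over all 13764 genes so corrected, 3195 rose after E2F1 siRNA (2830 without the correction) and 3080 after E2F3 siRNA (2913 without it).

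Shared sequence touches many of these values. More than 5% of the 50-base words of the longest transcript occur in transcripts of other genes for 61 of the 155 genes, and more than 50% for 8. Of the genes named above, ZNF358 (19.5%), ZNF653 (19.3%), ZNF836 (14.7%), ZNF254 (10.1%) and ZNF761 (10.1%) hold the most after ZNF468, and ZNF845 holds 6.75%. Among the 94 with at most 5% shared, 33 rose and 4 fell after E2F1 siRNA, and 39 rose and 2 fell after E2F3 siRNA. The shares of all genes called higher were 20.5% and 21.1%. In the 2 neighbourhoods with most calls, 15 of 22 such genes rose after E2F1 siRNA and 15 of 22 after E2F3 siRNA. Exons of 51 genes overlap those of a gene on the opposite strand, among them ZNF227, ZNF765, ZNF146, ZNF358, ZNF114, ZNF473, ZNF57, ZNF573, ZNF649, ZNF224 and ZNF304. Their values are uncertain, since it is not stated whether counting used strand. Among the 104 without such overlap, 41 rose and 4 fell after E2F1 siRNA, and 49 rose and 3 fell after E2F3 siRNA.

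ZNF genes elsewhere in the genome and other genes of chromosome 19 were counted in the same way. Of 190 tested ZNF genes on other chromosomes, 73 rose and 8 fell after E2F1 siRNA (median 0.23), and 74 rose and 10 fell after E2F3 siRNA (median 0.22). Those are 38.4% and 38.9% rising, set beside 38.7% and 45.8% of the chromosome 19 members and 20.5% and 21.1% of all genes tested. Of 695 other protein-coding genes on chromosome 19, 196 rose and 85 fell after E2F1 siRNA (median 0.09), and 98 rose and 171 fell after E2F3 siRNA (median -0.04). Of 8 tested chromosome 19 genes named ZFP, ZSCAN, ZKSCAN, ZIM, ZIK or ZBTB, 1 rose and 2 fell in either comparison. Of 2138 other protein-coding genes with mean levels in the members' interquartile range, 277 rose and 405 fell after E2F1 siRNA, and 394 rose and 304 fell after E2F3 siRNA.

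**Figure D4:**
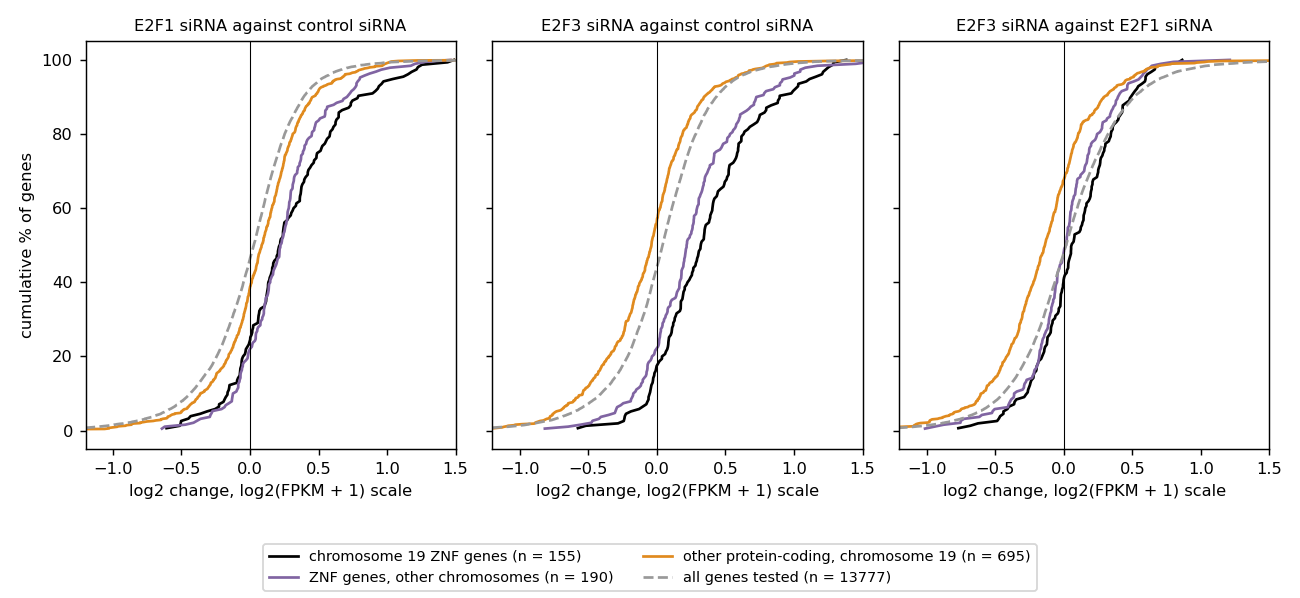
Cumulative percent of genes (vertical axis) by log2 change (horizontal axis, log2(FPKM + 1) scale) in the 3 comparisons, for chromosome 19 ZNF genes, ZNF genes on other chromosomes, other protein-coding genes on chromosome 19 and all genes tested. In the first 2 panels both ZNF curves lie right of the curve of all genes, with medians of 0.22 (chromosome 19) and 0.23 in the E2F1 panel and of 0.32 (chromosome 19) and 0.22 in the E2F3 panel.

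Set directly against E2F1 siRNA, E2F3 siRNA left 34 of the 155 genes higher, 13 lower and 108 not called, with a median log2 difference of 0.06 (0.11 without E2F1 siRNA replicate 1). Over all genes tested 23.5% were called higher and 22.0% lower in this comparison. The E2F3 siRNA libraries all lay above the E2F1 siRNA libraries for 46 members and all below for 26, where 27.9% and 25.9% of all genes did so. The neighbourhood from ZNF414 to ZNF846 had 7 of 12 genes higher after E2F3 siRNA and 0 lower, and the neighbourhood from ZNF175 to ZNF331 had 4 higher and 3 lower of 29.

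ZNF146, also known as OZF (chr19:36214602-36238774 in GRCh38, plus strand), stood apart between the siRNAs. It read 88.27, 87.32 and 88.55 FPKM after E2F3 siRNA, 55.91, 53.10 and 56.24 FPKM after E2F1 siRNA, and 61.86, 62.64 and 59.81 FPKM in control libraries. The groups did not overlap, the E2F3 siRNA libraries standing above and the E2F1 siRNA libraries below control. The log2 difference between the siRNAs was 0.67 (SE 0.04; limma adjusted p = 1.07e-06), and the rise over control after E2F3 siRNA was 0.51. ZNF419 read 7.87, 8.81 and 10.01 FPKM after E2F3 siRNA and 4.11, 3.53 and 5.87 FPKM after E2F1 siRNA, a difference of 0.86 (limma adjusted p = 1.02e-03). ZNF426, described above, differed by 0.61. ZNF773 differed by 0.71, ZNF649 by 0.64 and ZNF573 by 0.60. ZNF649 lost its call without E2F1 siRNA replicate 3 or E2F3 siRNA replicate 1 or 3 (log2 0.53 to 0.57), and ZNF573 without the same libraries (0.50 to 0.55), and both were lost with no filter on low values. ZNF177 and ZNF490 differed by 0.84 and 0.66, but 97.8% and 70.9% of the 50-base words of their transcripts occur in transcripts of other genes.

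On the other side, ZNF473 was high after E2F1 siRNA alone. ZNF473, also called ZFP100, is a component of the U7 snRNP machinery that processes the ends of histone mRNAs. It read 8.77, 10.06 and 7.65 FPKM after E2F3 siRNA, 14.57, 13.83 and 13.89 FPKM after E2F1 siRNA, and 9.37, 9.10 and 7.96 FPKM in control libraries. Its log2 difference between the siRNAs was -0.63 (SE 0.10; limma adjusted p = 5.27e-04), and its rise after E2F1 siRNA over control was 0.62. ZNF653 differed by -0.77 and ZNF507 by -0.68, with the values given above. ZNF440 read 3.92, 3.86 and 3.32 FPKM after E2F3 siRNA and 5.18, 6.28 and 5.32 FPKM after E2F1 siRNA (log2 -0.49). ZNF180 differed by -0.44 and ZNF57 by -0.46. ZNF766 also differed by -0.44 and ZNF836 by -0.47, and both calls rest on few libraries. ZNF766 lost its call without E2F1 siRNA replicate 1 or 2 (log2 -0.38 and -0.35). ZNF836 lost it without E2F1 siRNA replicate 3 or E2F3 siRNA replicate 2 or 3 (log2 -0.46 to -0.32), with an added constant of 0.1 FPKM, or with no filter on low values.

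Some further members were looked up after the values had been seen. ZNF274 recruits SETDB1 to the 3′ ends of other ZNF genes. It read 13.10, 13.03 and 13.35 FPKM after E2F1 siRNA, 13.61, 13.98 and 14.22 FPKM after E2F3 siRNA, and 13.16, 12.74 and 11.71 FPKM in control libraries, and passed the test in neither comparison (log2 0.07 and 0.14; limma adjusted p = 0.411 and 0.0828). ZNF350, or ZBRK1, a partner of BRCA1 that represses GADD45A, read 7.13, 5.02 and 6.03 FPKM after E2F1 siRNA, 7.5, 6.10 and 4.72 FPKM after E2F3 siRNA, and 3.22, 4.05 and 3.35 FPKM in control libraries. It rose by 0.63 after E2F1 siRNA and by 0.63 after E2F3 siRNA (limma adjusted p = 0.0105 and 0.0109). ZNF224, a repressor of the aldolase A gene, rose by 0.31 and 0.32, but lost its call after E2F1 siRNA without control replicate 2 or 3 or E2F1 siRNA replicate 1 or 3 (log2 0.27 to 0.32), and after E2F3 siRNA without control replicate 2 or 3 or E2F3 siRNA replicate 1 (log2 0.21 to 0.31). ZNF304, with 16 fingers and a KRAB domain, rose by 0.34 after E2F1 siRNA and read 0.08 after E2F3 siRNA, where it was not called. Its call was lost without control replicate 2 or 3 or any 1 of the E2F1 siRNA libraries (log2 0.31 to 0.34).

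The corepressor and silencing genes that KRAB proteins work with moved in both directions. Of 18 such genes tested, 7 rose and 2 fell after E2F1 siRNA. With E2F3 siRNA, 3 rose and 5 fell. By the same test, 20.5% of all genes were called higher and 17.3% lower in the E2F1 comparison with control. For the E2F3 comparison with control these shares were 21.1% and 16.4%. Whether the 18 genes differ from all genes in this respect was not tested. TRIM28, which the KRAB domain binds, read 163.01, 179.92 and 169.07 FPKM after E2F1 siRNA, 105.10, 113.64 and 91.26 FPKM after E2F3 siRNA, and 148.04, 142.38 and 155.38 FPKM in control libraries. Its fall after E2F3 siRNA was of 0.52 on the log2 scale (limma adjusted p = 4.7e-04), and its log2 change of 0.20 after E2F1 siRNA did not pass (limma adjusted p = 0.0622), though it did without E2F3 siRNA replicate 2 or 3, with only the libraries compared and with a filter of 5 FPKM. SETDB1, the histone methyltransferase of the pathway, averaged 23.8 ± 1.26 FPKM after E2F1 siRNA, 26.2 ± 1.96 FPKM after E2F3 siRNA and 22.7 ± 1.49 FPKM in control libraries (SD, n = 3 each), and was not called in either comparison with control. With 5 of the alternatives its log2 change after E2F3 siRNA, of 0.20 to 0.26, did pass.

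FAM208A, which codes for TASOR of the HUSH silencing complex, had the largest rise among the 18. It read 38.52, 37.48 and 36.56 FPKM after E2F1 siRNA, 27.62, 26.90 and 26.75 FPKM after E2F3 siRNA, and 15.98, 20.11 and 19.96 FPKM in control libraries. Its groups did not overlap (log2 0.98 and 0.52; limma adjusted p = 1.15e-05 and 7.16e-04). UHRF1, which guides DNA methylation to replicated DNA, read 48.00, 46.57 and 49.05 FPKM after E2F1 siRNA, 14.78, 15.66 and 15.88 FPKM after E2F3 siRNA, and 59.16, 61.59 and 60.92 FPKM in control libraries (log2 -0.33 and -1.91). DNMT1, the maintenance DNA methyltransferase, read 111.03, 98.80 and 112.45 FPKM after E2F1 siRNA, 59.24, 59.21 and 54.40 FPKM after E2F3 siRNA, and 88.48, 86.76 and 97.35 FPKM in control libraries. It fell after E2F3 siRNA (log2 -0.65; limma adjusted p = 4.97e-05). It rose after E2F1 siRNA (log2 0.24), a call lost without control replicate 1 or 2 or E2F1 siRNA replicate 1 or 3 (0.20 to 0.22). CBX5, an HP1 protein, fell by 0.41 after E2F1 siRNA and was at log2 0.13 after E2F3 siRNA, where it was not called. ATF7IP rose by 0.47 after E2F1 siRNA, CHD3 by 0.30 and PPHLN1 by 0.26. After E2F3 siRNA, MPHOSPH8 rose by 0.32 and CHD3 by 0.23, while KIAA1551 fell by 0.37 and MORC2 by 0.20. KIAA1551 lost its call without control replicate 1 or E2F3 siRNA replicate 3 (log2 -0.31 and -0.29). Those of MORC2 after E2F3 siRNA, and of MPHOSPH8 (log2 0.19) and ATRX (0.24) after E2F1 siRNA, were lost on leaving out any 1 of at least 5 libraries or with no filter on low values. The calls of ATRX and MPHOSPH8 were also lost with either other scaling (log2 0.16 to 0.21). These levels moved in the same libraries as the ZNF genes, and their part in the ZNF changes was not tested.

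**Figure D5:**
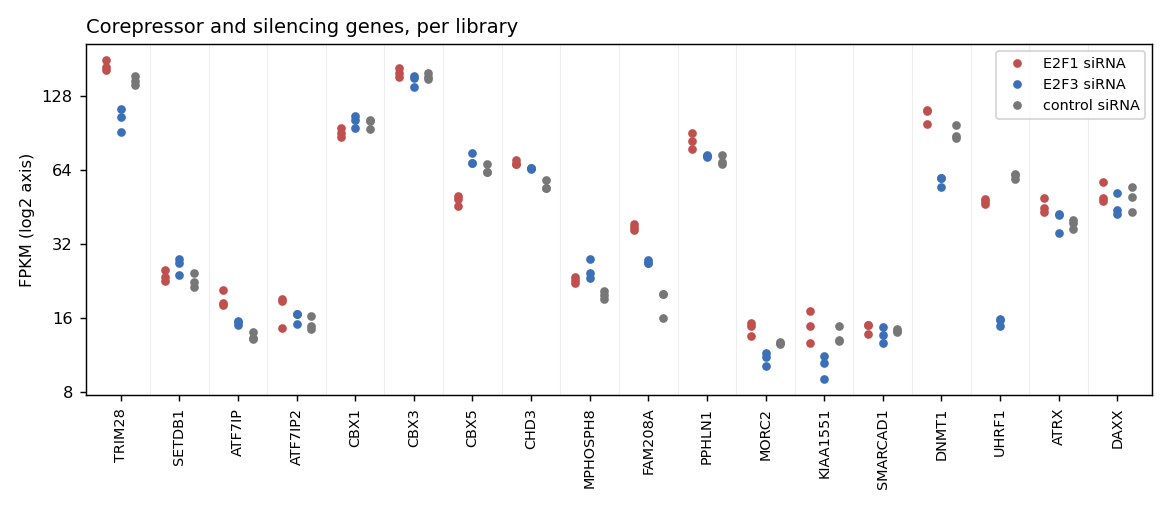
FPKM per library (vertical axis, log2 scale) of 18 corepressor and silencing genes, with E2F1 siRNA at the left of each column, E2F3 siRNA in the middle and control siRNA at the right. UHRF1 stands at 14.78 to 15.88 FPKM after E2F3 siRNA, against 59.16 to 61.59 FPKM in control libraries, while FAM208A is higher than control in all 6 knockdown libraries.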

How the data were processed

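The 9 libraries, 3 per siRNA, hold RNA of HK1 cells. The files deposited by the authors hold FPKM per gene, per the file headers. The submitters' processing notes name GRCh38 as the build and, as tools, HTSeq, DESeq, HISAT2, TopHat and Trimmomatic. What each did, its version and any use of strand are not stated in the sources used here. The 12 text entries per file without a value were left out. Genes were matched to GENCODE 29 by Ensembl identifier.

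Genes reaching 1 FPKM in 3 or more libraries were kept, and the deposited FPKM entered as log2(FPKM + 1). All 9 libraries entered 1 limma model (limma 3.58.1, R 4.3.3, with trend, two-sided, Benjamini-Hochberg adjusted over all 13777 genes, threshold 0.05) with a mean per group. It was tested on simulated data. The depth is unknown, so no interval for counting error is given. Named genes were, per comparison, the 8 largest called rises and falls whose groups do not overlap, the 8 highest genes, the 3 nearest the limit on each side, and the corepressor list. Protein features came from the longest coding sequence of each gene in GENCODE 29, and promoters from the RefSeq table (Python 3.11.15, Biopython 1.88). Alternatives were RLE and upper-quartile scaling, a constant of 0.1 FPKM, no filter or one of 5 FPKM, only the libraries compared, a replicate block, a correction for GC content and length, an adjusted p of 0.01, and leaving out each library. Members, lists and groupings were chosen with earlier results of these data known.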

Additional observations from a re-analysis of the deposited data

How the results depend on the processing

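No call of a named ZNF gene reversed under any alternative run. Over 42 named calls and 744 alternative values, 699 kept their side of the threshold and 45 did not, and 31 of the calls passed under every alternative. A further 150 values of named and corepressor genes gave 2494 of 2682 alternatives on the same side, 143 that lost a call, 45 that gained one and 0 reversals. At an adjusted p of 0.01, members lower fell to 3 after E2F1 siRNA (7 at 0.05) and 1 after E2F3 siRNA (3 at 0.05), and members higher after E2F3 than E2F1 siRNA to 15 (34 at 0.05), a stricter threshold by construction. With a filter of 5 FPKM, 45 members were higher after E2F3 siRNA (71 with 1 FPKM), with fewer members tested (78), and with no filter the median log2 change over 220 members was 0.11 after E2F1 siRNA (0.22 with it), 0.17 after E2F3 siRNA (0.32) and 0.03 for E2F3 against E2F1 siRNA (0.06). With no filter, 42 members were higher after E2F1 siRNA (60 with it) and 57 after E2F3 siRNA (71). From ZNF101 to ZNF254, 11 of 17 were then higher after E2F1 siRNA (14 with the filter). The filter of 5 FPKM left 42 of 78 higher after E2F1 siRNA, and an adjusted p of 0.01 left 41 and 52 higher after E2F1 and E2F3 siRNA. Leaving out each library gave 50 to 61 members higher and 6 to 8 lower after E2F1 siRNA, 57 to 72 and 2 to 4 after E2F3 siRNA, and 25 to 34 and 11 to 15 for E2F3 against E2F1 siRNA, where the median ran from 0.06 to 0.11. From ZNF101 to ZNF254 it gave 12 to 14 higher after E2F1 siRNA and 13 to 14 after E2F3 siRNA, and from ZNF175 to ZNF331 15 to 19 and 17 to 20. The replicate numbers did not pair the libraries (correlation of same-numbered deviations -0.11 to 0.11). A replicate block gave 59 higher and 7 lower after E2F1 siRNA, 68 and 2 after E2F3 siRNA, and 34 and 12 for E2F3 against E2F1 siRNA. With it the calls of ZNF584, ZNF573 and MORC2 after E2F3 siRNA, MPHOSPH8 after E2F1 siRNA and ZNF836 for E2F3 against E2F1 siRNA were lost, and those of SETDB1 and ZNF419 after E2F3 siRNA and ZNF358 for E2F3 against E2F1 siRNA were gained, among the named and corepressor genes. With no filter, further calls lost against control were those of ZNF224 in both comparisons, ZNF304 and ZNF431 after E2F1 siRNA, and KIAA1551, ZNF490, ZNF561, ZNF573, ZNF649 and ZNF773 after E2F3 siRNA. The cause was not tested. Low levels, shared sequence and unknown depth limit what can be said of single genes.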
